A study of Mus musculus with 20 samples.

Results

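The genes Lypd8, Lypd8-like (Lypd8l), Plet1 and the noncoding Plet1os of the mouse proximal colon (PC) are 4 of the 12701 genes counted. They were picked by name because earlier looks at these same counts had shown means that climbed with the level of resistant potato starch (RPS) in the diet and, for some pairs, counts that moved together over the libraries. Their levels across diets, their fold changes and their correlations with each other are therefore the values that chose them, and are given as descriptions without a test. RNA came from a short PC segment of C57BL/6 mice, an inbred strain, 5 mice on each of 4 diets. Every mouse, the 0% RPS controls included, first ate the Total Western Diet (TWD), which copies the nutrient intake of people in the USA, for 6 weeks. For the last 3 weeks the TWD contained 0, 2, 5 or 10% RPS, a raw starch that reaches the bacteria of the large bowel largely undigested. The comparison asks how much RPS added to the same diet goes with a change in these genes. A PC segment holds epithelium, muscle, nerves and immune cells together, so fewer cells of a type and less RNA per cell cannot be told apart.

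The mucosal surface of the colon is kept apart from its bacteria by mucus and by proteins on or above the epithelium. Lypd8 belongs to the Ly6/uPAR family of small, cysteine-rich surface proteins. It is a heavily glycosylated protein held on the apical side of colon enterocytes by a glycosylphosphatidylinositol (GPI) anchor, is shed into the lumen, and binds the flagella of bacteria so that they stay out of the inner mucus. Lypd8l is named for its likeness to Lypd8. Plet1 (placenta-expressed transcript 1) is a GPI-anchored surface protein of epithelial progenitors that interleukin-17 signalling induces in the injured colon. Plet1os is a long noncoding RNA read from the opposite strand at the Plet1 locus.

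In GRCm39, Lypd8 (ENSMUSG00000013643) lies on the plus strand at chr11:58269863-58281554, and Lypd8l (ENSMUSG00000037145) on the minus strand at chr11:58499030-58506901. Plet1 (ENSMUSG00000032068) lies on the plus strand at chr9:50405817-50420299, wholly inside the body of Plet1os (ENSMUSG00000101304) on the minus strand at chr9:50398632-50432747. The exons of the chromosome 9 genes cross in 4 places of 76, 56, 185 and 979 bases. These 1296 bases are 23.7% of the exon bases of Plet1 and 30.8% of those of Plet1os. One of them is the whole of coding exon 3 of Plet1, at chr9:50412373-50412428, shown on both strands because a read from it can be given to the right gene only by its strand. The library kit keeps strand, but whether the counting used it is not stated in the sources used here.
Plet1 exon 3, plus strand: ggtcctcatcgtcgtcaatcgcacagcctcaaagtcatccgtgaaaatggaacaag
Plet1os, minus strand: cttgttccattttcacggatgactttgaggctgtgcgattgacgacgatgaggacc

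Of the 5423 different 50-base windows in the transcripts of Plet1, 20.6% also occur on the opposite strand of another gene, and 0.332% occur on the same strand of other genes. Of the 4463 windows of Plet1os, 24.8% occur on the opposite strand of Plet1 and 0 occur on the same strand of any other gene.

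**Figure D1:**
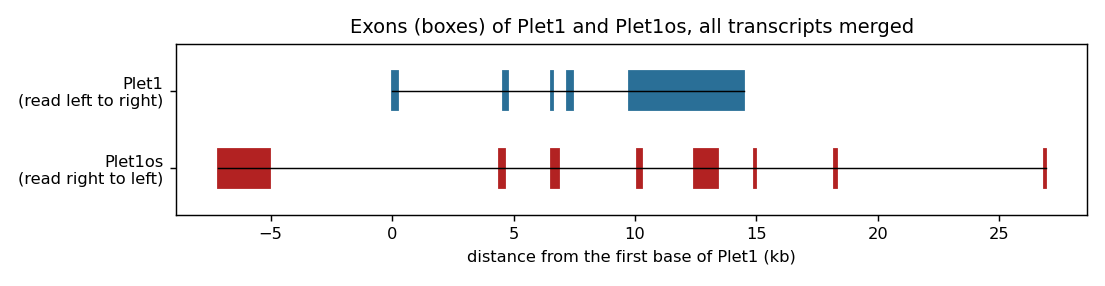
Exons of Plet1 and Plet1os with all transcripts merged; the horizontal axis is distance from the first base of Plet1 in kb, and the boxes are exons. Plet1 lies inside the body of Plet1os, and 4 stretches of exon are shared on opposite strands.

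Lypd8 and Lypd8l, in contrast, shared no 50-base window with each other or with any other gene, among 1595 windows of Lypd8 and 1501 of Lypd8l. Their coding sequences of 765 and 660 bases, aligned with gaps allowed, paired over 635 bases with 53.9% identical bases. The longest identical run was 10 bases. What identity unrelated sequences would reach in such an alignment was not tested. The most alike of 173010 pairs of 60-base stretches without gaps, each inside 1 coding exon, had 32 identical bases. It is shown to let the distance between the genes be seen. It lies in exon 6 of Lypd8 (chr11:58277588-58277647, plus strand) and exon 5 of Lypd8l (chr11:58501533-58501592, minus strand), and capitals mark the bases that differ.
Lypd8: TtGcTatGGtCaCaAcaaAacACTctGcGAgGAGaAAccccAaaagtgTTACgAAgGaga
Lypd8l: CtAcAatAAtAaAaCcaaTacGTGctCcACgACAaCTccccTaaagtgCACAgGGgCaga

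RefSeq promoters, from 250 bases before to 50 bases after a start site in build GRCm38.p6, were on hand for 3 of the 4 genes and not for Lypd8l. Those of Plet1, Plet1os and the first of 2 listed start sites of Lypd8 are shown because the counts of Plet1 and Plet1os ran together while those of Lypd8 ran apart from them. The listed start site of Plet1os is an inner one, inside the last exon of Plet1 and not at the outer end of Plet1os. Plet1os has 13 transcripts, and no promoter at that outer end was on hand. Both strands were searched for TATANA (TATA box) and TGANTCA (AP-1 with any base in the middle), with capitals marking each match. They were also searched, without capitals, for TTTATG (CDX), CAAAGT (HNF4), CACCC (KLF), TTCNNNGAA (STAT) and, as the letters of GATA factors, AGATAA. A match is only a run of letters and is not taken as a site in use.
Plet1, chr9:50494275-50494574, plus strand: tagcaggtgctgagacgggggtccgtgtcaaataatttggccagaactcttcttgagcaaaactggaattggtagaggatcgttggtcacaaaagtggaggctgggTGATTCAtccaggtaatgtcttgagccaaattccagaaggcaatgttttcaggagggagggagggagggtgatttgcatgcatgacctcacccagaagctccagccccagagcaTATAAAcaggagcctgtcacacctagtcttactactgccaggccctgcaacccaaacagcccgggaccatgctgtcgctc
Plet1os, chr9:50504756-50505055, minus strand: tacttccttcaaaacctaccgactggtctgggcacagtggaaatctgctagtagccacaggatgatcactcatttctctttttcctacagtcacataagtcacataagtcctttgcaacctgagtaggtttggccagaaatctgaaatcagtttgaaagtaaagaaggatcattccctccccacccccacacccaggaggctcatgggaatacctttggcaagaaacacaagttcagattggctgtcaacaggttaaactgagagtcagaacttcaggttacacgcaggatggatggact
Lypd8, chr11:58378782-58379081, plus strand: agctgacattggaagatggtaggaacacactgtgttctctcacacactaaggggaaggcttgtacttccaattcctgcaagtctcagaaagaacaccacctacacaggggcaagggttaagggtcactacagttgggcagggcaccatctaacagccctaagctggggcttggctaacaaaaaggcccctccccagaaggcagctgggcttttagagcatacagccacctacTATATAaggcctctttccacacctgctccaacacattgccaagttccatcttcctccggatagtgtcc

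TATA letters began 30 bases before the start site of Plet1 and 18 bases before the first one of Lypd8. Neither the inner start site of Plet1os nor the second Lypd8 start site had them. They occur in 24.7% of the 32851 promoters. These loose AP-1 letters occurred in Plet1 alone of these promoters, as TGATTCA, 144 bases before its start, and occur in 7.81% of all promoters. Letters with only C or G in the middle, the usual form of AP-1, were not counted. KLF letters occurred 3 times in Plet1, 2 times in Plet1os and 0 times in either Lypd8 promoter, and occur in 57.5% of all promoters. GATA letters occurred 1 time, at the second Lypd8 start site (11.2% of promoters), and the CDX, HNF4 and STAT letters occurred in none of the 4.

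Libraries held 20581013 to 35083751 counts, with a median of 26354926. Values below are normalised read counts, that is, counts divided by a size factor that sets the libraries to a common depth. Of the 20 libraries, 0% RPS replicate 2 was least like its own diet (mean correlation of variance-stabilised counts 0.966, against 0.982 to 0.992 for the others), so results that rest on it are also given without it. The labels number 17 of the libraries in 1 run, and 3 (2% RPS replicate 5 and 10% RPS replicates 4 and 5) apart from it, with no reason stated. The lowest raw count of any of the 4 genes in any library was 256, far above the detection floor of 3 counts.

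Lypd8 was among the most abundant transcripts of the tissue. It ranked 8 of 12682 genes in counts per kb of exon, and took 0.453 to 0.682% of all counts in a library. Per kb, Lypd8l ranked 829, Plet1 ranked 846 and Plet1os ranked 5511. Exon length, here and below, merges all transcripts of a gene. For Plet1os this is 4201 bases from 13 transcripts, where its canonical (reference) transcript has 487. For Lypd8l it is 1457 bases against 884. A rank per kb, most of all that of Plet1os, therefore depends on this choice.

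The normalised counts of Lypd8 at 0% RPS were 154431, 119174, 134029, 127034 and 132039 in replicates 1 to 5. They were 147114, 140150.5, 173873, 144034 and 160200.1 at 2% RPS, and 142027, 176508, 161904, 131866 and 164504 at 5% RPS. At 10% RPS they were 172939.7, 145285, 192296, 160604 and 154389. The highest control lay above at least 1 library of every starch diet, so all diets overlapped. Means were 133341 ± 13109 (SD, n = 5) at 0%, 153074 ± 13853 at 2%, 155362 ± 18051 at 5% and 165103 ± 18225 at 10% RPS. The log2 fold change against 0% RPS was 0.20 ± 0.09 (SE) at 2%, 0.22 ± 0.09 at 5% and 0.31 ± 0.09 at 10% RPS, the smallest of the 4 genes at 5% and 10%. Steps between the starch diets were within the spread of mice, with log2 differences of 0.02 from 2 to 5% and 0.09 from 5 to 10% RPS. In counts the 10% mean was 31762 above the control mean, more than the whole level of any of the other genes.

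Lypd8l had the largest fold change at 10% RPS of the 4 genes. Its normalised counts at 0% RPS were 782, 1271, 581, 1068 and 785, and at 2% RPS 1327, 1292, 1599, 1082 and 1125. At 5% RPS they were 1631, 891, 1889, 1535 and 2007, and at 10% RPS 1864, 1524, 2961, 2567 and 3996. Every 10% library lay above every control library, while replicate 2 at 5% RPS sat among the controls. Means were 897 ± 272, 1285 ± 205, 1590.4 ± 435 and 2583 ± 972 (SD, n = 5) from 0 to 10% RPS. The log2 fold changes were 0.52 ± 0.24 (SE), 0.83 ± 0.24 and 1.52 ± 0.24 at 2, 5 and 10% RPS. Without 0% RPS replicate 2, the highest control, they were 0.68, 0.98 and 1.68. Between starch diets the difference was 0.31 ± 0.24 from 2 to 5% and 0.70 ± 0.24 from 5 to 10% RPS, with overlapping libraries in both. Per kb of exon, Lypd8l stood at 0.691% ± 0.263 (SD) of Lypd8 at 0% RPS and 1.58% ± 0.626 at 10% RPS, so it remained a minor transcript beside Lypd8.

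**Figure D2:**
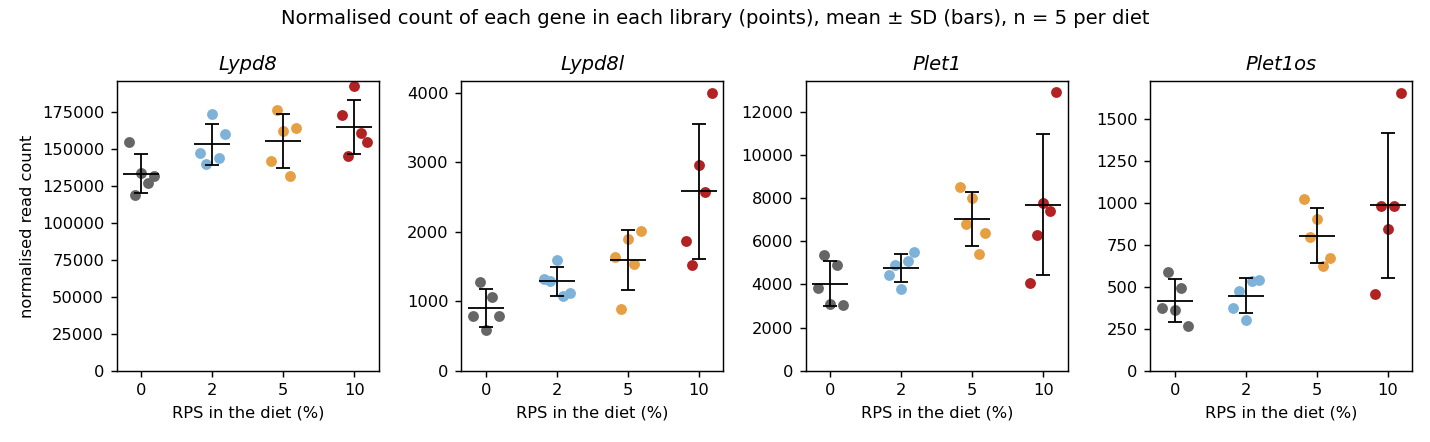
Normalised read count (vertical axes, from 0, different scale for each gene) against the percentage of RPS in the diet; points are libraries and bars are mean ± SD, n = 5. Over all libraries, diet means climb at every step for each gene. The diets overlap throughout for Lypd8, and the 10% libraries spread widely for Plet1 and Plet1os. Without the 3 libraries outside the label run, Plet1 and Plet1os had a lower log2 fold change at 10% than at 5% RPS.

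Plet1 differed little between 0 and 2% RPS and was higher at 5 and 10% RPS. Its normalised counts were 3821, 5349, 3109.9, 4886 and 3039 at 0% RPS and 4427, 4923, 3806, 5078 and 5513 at 2% RPS. At 5% RPS they were 8522, 6796, 8013, 5408 and 6402, and at 10% RPS 4082, 6309, 7778, 7388 and 12929. Every 5% library was above every control, by a margin of 5408 to 5349 at the nearest pair, whereas 10% RPS replicate 1 fell among the controls and replicate 5 stood above every other library. Means were 4041 ± 1042, 4749 ± 655, 7028 ± 1252 and 7697 ± 3259 (SD, n = 5). The log2 fold changes were 0.23 ± 0.22 (SE) at 2%, 0.80 ± 0.22 at 5% and 0.93 ± 0.22 at 10% RPS, and the step from 5 to 10% was 0.13 ± 0.22. At 10% RPS the value was 0.66 without replicate 5 and 1.09 without replicate 1 of that diet, and 0.58 without the 3 libraries outside the label run. Without those 3 the 5% value was 0.80, so the climb from 5 to 10% RPS was lost.

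Plet1os followed the same course at a lower level. Its normalised counts were 376, 589, 359, 494 and 265 at 0% RPS and 375, 476, 302.2, 534 and 541 at 2% RPS. At 5% RPS they were 1019, 795, 903, 624 and 671, and at 10% RPS 459, 980.4, 845, 978 and 1654. Every 5% library was above every library of the 0% and 2% diets, and 10% RPS replicates 1 and 5 were again the low and high ends. Means were 417 ± 126, 446 ± 104, 802 ± 163 and 983 ± 431 (SD, n = 5). The log2 fold changes were 0.10 ± 0.26 (SE), 0.94 ± 0.26 and 1.24 ± 0.26 at 2, 5 and 10% RPS. The 2% value was -0.028 without 0% RPS replicate 5, the lowest control, so its direction rested on that library. At 10% RPS it was 0.97 without replicate 5 and 1.42 without replicate 1 of that diet, and 0.87 without the 3 libraries outside the label run. Without those 3 the 5% value was 0.95, so here too 10% RPS was not above 5%. For Lypd8 and Lypd8l at 10% RPS the values without those 3 were 0.35 and 1.24.

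By the thresholds of the study (DESeq2 adjusted p at most 0.05, change at least 1.5-fold), Lypd8l, Plet1 and Plet1os counted as higher at 5% RPS, where 0.334% of 12561 genes did, and at 10% RPS, where 0.525% did. At 2% RPS 0 of the 4 genes passed, with 0.0239% of genes called. In a linear trend over the RPS percentage, without a fold threshold, the same 3 genes passed as higher, as did 2.4% of 12545 genes. Nothing is read from these counts, since these contrasts chose the genes. Lypd8 passed in no comparison. Its mean at 10% RPS was 1.24 times the control mean, so the 1.5-fold threshold alone kept it from a call there. It also did not pass in the trend, which had no fold threshold. With edgeR, 0 of the 4 passed at 5% RPS against 0.0566% of genes, and Lypd8l and Plet1os passed at 10% RPS against 0.226%. Every library above the highest control was seen for Plet1 and Plet1os at 5% RPS (1.5% of 11979 expressed genes) and for Lypd8l at 10% RPS (1.39%). Every 5% library above the highest 2% library was seen for Plet1os and for 0.376% of genes. Means that climbed at every step from 0 to 10% RPS, as in all 4 genes, were found in 9.34% of genes. In Plet1 and Plet1os the last step of that climb rested on the 3 libraries outside the label run, as given above.

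The ratio of Plet1os to Plet1 was steadier than either gene. Plet1os had 10.3% ± 1.09 (SD, n = 5) of the counts of Plet1 at 0% RPS, 9.28% ± 1.05 at 2%, 11.4% ± 0.567 at 5% and 12.7% ± 1.86 at 10% RPS. Ranges were 8.73 to 11.5% at 0% and 10.9 to 15.5% at 10% RPS, which overlapped. The shared exon bases are 23.7% of the exon length of Plet1, a share larger than this ratio in every library. What part of the Plet1os counts came from Plet1 reads was not tested, since counts per exon were not analysed here.

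Correlations of log2(normalised count + 1) over the 20 libraries, which share the diets, are given with Pearson's r, Spearman's rho and then r after each diet's mean was taken off. Plet1 and Plet1os gave r = 0.96, rho = 0.96 and r = 0.95 within diets, and each was the gene most correlated with the other among 11968 genes both with and without diet means. Without the 2 libraries farthest out in the first gene, r was 0.94. Lypd8l and Plet1 gave r = 0.77, rho = 0.67 and r = 0.58 within diets, and 0.59 without the 2 farthest libraries. Lypd8l and Plet1os gave r = 0.70, rho = 0.62 and r = 0.36 within diets, and 0.55 without the 2 farthest.

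Lypd8 ran apart from the other genes. With Lypd8l it gave r = 0.45, rho = 0.46 and r = -0.095 within diets. With Plet1 the values were 0.30, 0.30 and -0.20, and with Plet1os 0.23, 0.19 and -0.36. The library 0% RPS replicate 2 was the lowest control for Lypd8 and the highest control for Lypd8l, Plet1 and Plet1os. Without it the correlations of Lypd8 were 0.48, 0.33 and 0.25, and that of Plet1 with Plet1os was 0.96.

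**Figure D3:**
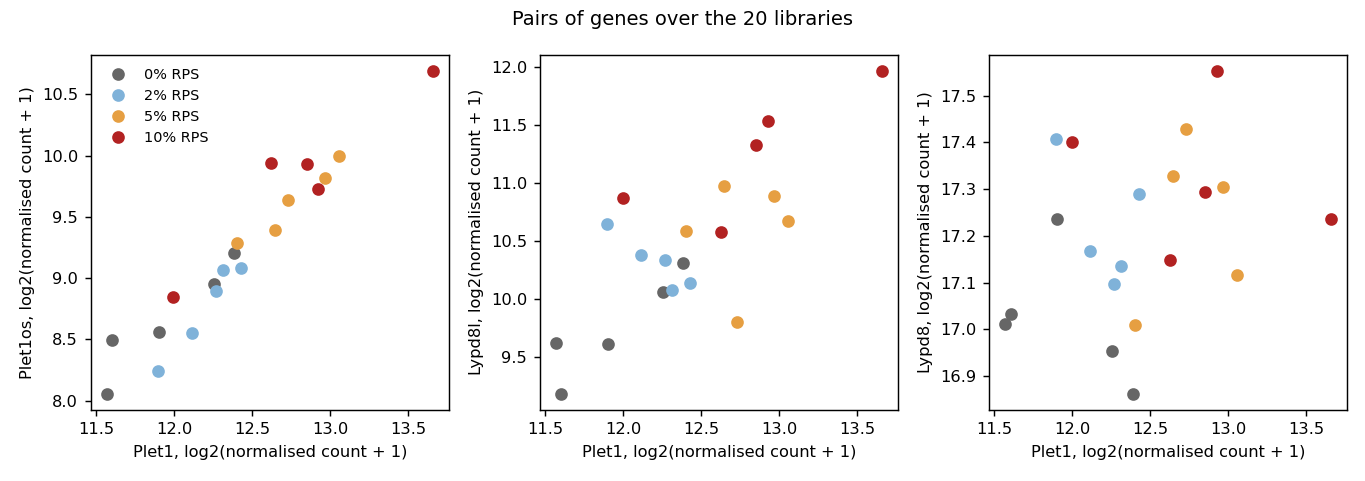
Plet1os, Lypd8l and Lypd8 (vertical axes) against Plet1 (horizontal axes), all as log2(normalised count + 1); each point is 1 of the 20 libraries, coloured by diet. Points fall along a line for Plet1 and Plet1os (r = 0.96), scatter more for Lypd8l (r = 0.77) and show little order for Lypd8 (r = 0.30).

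The genes most like each of the 4 over the libraries were listed without regard to function, and no shared control is read from them. For Plet1 they were Galnt12 (r = 0.91, 0.83 within diets), which starts O-glycan chains, Spcs2 of the signal peptidase (0.90, 0.83), the glycoprotein folding sensor Uggt1 (0.89, 0.88), the gel-forming mucin Muc2 (0.88, 0.85) and the potassium channel Kcnk6 (0.88, 0.82). For Plet1os they were C1galt1, which extends O-glycans to core 1 (0.91, 0.84), the golgin Gcc2 (0.90, 0.84), the sodium channel subunit Scnn1b (0.89, 0.81), Sec16a of endoplasmic reticulum exit sites (0.89, 0.83) and the vesicle tether Uso1 (0.89, 0.79). Of the 50 most correlated genes, Plet1 and Plet1os shared 32, which is 64% of each list.

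For Lypd8l the list was the trans-Golgi protein Tgoln1 (r = 0.87, 0.58 within diets), the tetraspanin Tspan6 (0.85, 0.83), the sialic acid hydroxylase Cmah (0.83, 0.64), Dap (0.83, 0.73) and the fatty acid elongase Elovl5 (0.82, 0.74). Lypd8l shared 10 of its 50 with Plet1 and 4 with Plet1os. For Lypd8 the list was the kinase Mapk13 (0.87, 0.80), the G protein subunit Gnb1 (0.86, 0.78), the phosphatidylserine synthase Ptdss1 (0.86, 0.79), the proton pump subunit Atp6v1e1 (0.85, 0.84) and the peroxidase Prdx1 (0.84, 0.73). Lypd8 shared 1 of its 50 with Lypd8l and 0 with Plet1 or Plet1os.

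The same split was seen against markers of the epithelial cell types. All 9 goblet cell markers were in the table and none was at 0, and Muc2 made up most of their sum. Summed goblet markers ranged from 489793 to 828468 normalised counts at 0% RPS, 458226 to 796594 at 2%, 693387 to 810458 at 5% and 605779 to 1095909 at 10% RPS. Their correlation with Plet1 was r = 0.87 (rho = 0.77, r = 0.80 within diets), with Plet1os r = 0.85 (0.75, 0.81), with Lypd8l r = 0.68 (0.55, 0.50) and with Lypd8 r = 0.04 (-0.11, -0.50). Taken one by one within diets, 8 of 9 goblet markers correlated positively with Plet1 (median 0.33) and 0 of 9 with Lypd8 (median -0.28). Among those for Plet1, Muc2 gave 0.85 and the disulfide isomerase Agr2 0.81, while the mucus lectin Zg16 gave 0.03 and the trefoil peptide Tff3 -0.06, so the relation was uneven over the list. These markers were chosen for naming after their values were seen. Muc2 was highest in 10% RPS replicate 5, at 847113 normalised counts, the library that was also highest for Plet1, Plet1os and Lypd8l. The summed list of bacterial segregation genes described below, which also holds Muc2 and Agr2, gave r = 0.91 with Plet1 and 0.89 with Plet1os (0.84 and 0.86 within diets). It gave 0.65 with Lypd8l and 0.17 with Lypd8 (0.39 and -0.37 within diets). Muc2 had a mean of 418309 normalised counts at 0% RPS, where the median of the segregation sum was 628679. Both sums thus consist largely of Muc2, and whether the relation reaches beyond the goblet list was not tested.

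All 25 absorptive colonocyte markers were in the table. Their sum ranged from 667870 to 1003745 at 0% RPS, where replicate 2 was lowest, and from 896593 to 1187729 at 10% RPS. It correlated with Lypd8 at r = 0.71 (rho = 0.59, r = 0.50 within diets), with Lypd8l at 0.36 (0.38, -0.33), with Plet1 at 0.30 (0.35, -0.17) and with Plet1os at 0.28 (0.23, -0.21). Within diets 21 of 25 markers correlated positively with Lypd8 (median 0.27) and 11 of 25 with Plet1 (median -0.08). Without 0% RPS replicate 2, r was 0.89 for Plet1 and 0.14 for Lypd8 with the goblet sum, and 0.36 and 0.62 with the absorptive sum. What part the mix of cells had in the diet differences of the 4 genes was not tested.

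**Figure D4:**
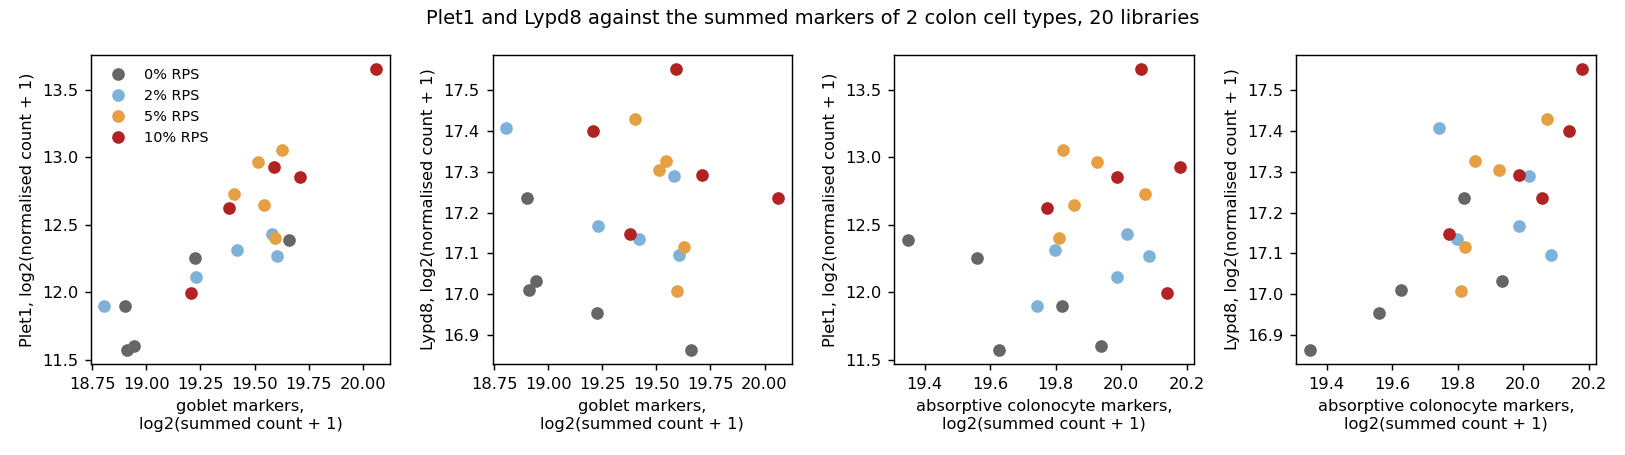
Plet1 and Lypd8 (vertical axes, log2(normalised count + 1)) against the summed goblet or absorptive colonocyte markers (horizontal axes, same scale) in the 20 libraries, coloured by diet. Plet1 follows the goblet sum (r = 0.87) and Lypd8 the absorptive sum (r = 0.71), with little order in the crossed pairs (0.04 and 0.30).

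Few markers of either cell type passed the thresholds. Of the 9 goblet markers, 0 passed at 5 or 10% RPS with DESeq2 or edgeR. At an unadjusted p under 0.05, 6 were higher at each level with DESeq2, and 5 and 6 with edgeR. Over all genes, in either direction, 16.6% at 5% and 18.8% at 10% RPS were under that p with DESeq2, and 15.9 and 18% with edgeR, and these shares are the background of the like counts of other lists. Their median log2 fold changes were 0.40 and 0.46, beside -0.0089 and 3.6e-05 over all genes. Without 0% RPS replicate 2, whose Muc2 was the highest among controls, 1 goblet marker passed at 5% and 4 at 10% RPS. Of the 25 absorptive markers, 1 passed at 5% RPS, the chloride channel regulator Clca4b (log2 2.67 ± 0.68, adjusted p = 0.0138), and 1 at 10% RPS, the adhesion molecule Ceacam1 (log2 0.60 ± 0.13, adjusted p = 0.000944). Over all genes 0.334 and 0.525% were called higher. At an unadjusted p under 0.05, 6 of the 25 were counted at 5% and 12 at 10% RPS with DESeq2. Of these, 5 and 11 were higher, against 16.6 and 18.8% of all genes in either direction. With edgeR 5 and 12 were counted. The median log2 fold changes of the 25 were 0.16 and 0.19. Clca4b did not pass with edgeR (adjusted p = 0.115), and Ceacam1 did (0.034). Without 0% RPS replicate 2, Ceacam1 at 10% RPS fell below the fold threshold (log2 0.58, adjusted p = 0.0022), and Clca4b kept its call at 5% RPS (0.022).

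Other proteins that keep bacteria off the epithelium were counted as a list of 31 genes, 25 of them in the table, with the 4 genes left out. At both 5 and 10% RPS 8 of the 25 rose and 0 fell, beside 0.334 and 0.525% of all genes called higher. They were the same 8 genes at both levels, with median log2 fold changes over the list of 0.45 and 0.47. The list was written with results of these data known, so its count is not independent evidence of a direction. The peroxidase Lpo rose by log2 1.21 ± 0.16 at 10% RPS (adjusted p = 2.59e-10) and the membrane mucin Muc13 by 0.60 ± 0.11 (3.28e-05). The lectin Reg3b rose by 4.06 ± 0.90 (adjusted p = 0.00137), Reg3a by 2.13 ± 0.51 (0.00358) and Reg3g by 3.46 ± 0.98 (0.019). These lectins are related genes, and how reads that match more than 1 of them were counted is not stated. The sequence they share was not measured here.

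Duox2, which makes hydrogen peroxide, rose by 1.25 ± 0.31 (adjusted p = 0.00518) and its partner Duoxa2 by 1.90 ± 0.54 (0.019). The fucosyltransferase Fut2 rose by 0.81 ± 0.23 (adjusted p = 0.019). Without 0% RPS replicate 2, Muc13 fell below the fold threshold at both levels (log2 0.55, adjusted p = 0.000517 at 5% and 0.000171 at 10%), Fut2 missed the p threshold (0.0812 and 0.0636), and the other 6 of these genes kept their calls. In that fit further genes of the list passed, Retnlb, Muc4 and Il18 at 5% RPS and Muc2, Agr2, Muc4 and Il18 at 10% RPS. The count of the list was then 9 at 5% and 10 at 10% RPS. With edgeR, 2 of the 25 passed at 5% RPS (Lpo and Muc13) and 3 at 10% RPS (those and Duox2). Muc13, at 41134 ± 4059 normalised counts (SD, n = 5) in controls and 62212 ± 4049 at 10% RPS, was the most abundant of the 8 in controls. Its log2 fold change of 0.60 ± 0.11 stands beside 0.31 ± 0.09 for Lypd8 at the same dose, a difference that was not tested.

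Most other Ly6/uPAR genes in the table did not pass. Of 44 genes listed, 14 were in the table. At 5% RPS 1 passed, Ly6a (log2 1.18 ± 0.33, adjusted p = 0.0314, from 2254 ± 277 to 5121 ± 2841 normalised counts). At 10% RPS 0 passed with DESeq2 or edgeR, and 1 of 14 had an unadjusted p under 0.05 with either tool, against 18.8 and 18% of all genes. Of all genes, 0.334% were called higher at 5% and 0.525% at 10% RPS. Ly6a did not pass with edgeR (adjusted p = 0.121 at 5% RPS). The most abundant per kb was Ly6e, at 1182 normalised counts per kb against 103705 for Lypd8, with log2 0.13 ± 0.17 at 5% and 0.16 ± 0.17 at 10% RPS. Ly6a stood at 786 per kb and Spaca4 at 761. The median log2 fold change of the 14 genes was -0.02 at 5% and 0.10 at 10% RPS.

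The enzymes that build and attach the GPI anchor carried by Lypd8 and Plet1 were also counted. Of 32 listed, 31 were in the table and 0 passed at 5 or 10% RPS with DESeq2 or edgeR. At an unadjusted p under 0.05, 1 and 3 genes were counted with either tool, against 16.6 and 18.8% of all genes with DESeq2. Of all genes, 0.438 and 0.9% were called in either direction. Their median log2 fold changes were 0.0070 and -0.00056.

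**Figure D5:**
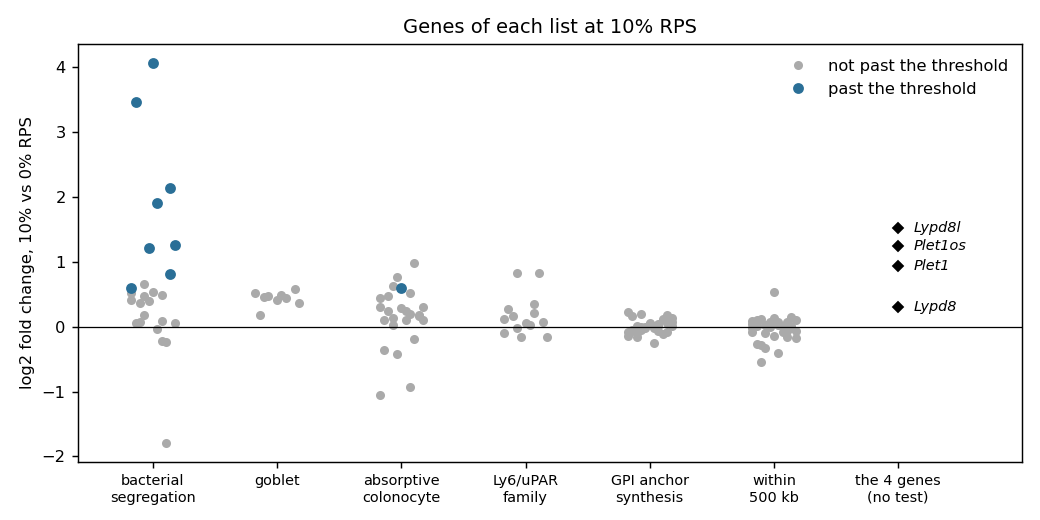
Log2 fold change at 10% against 0% RPS (vertical axis) of each gene in 6 lists and of the 4 genes described; blue points passed an adjusted p of 0.05 and a 1.5-fold change with DESeq2, grey points did not, and no test is given for the 4 genes. Lypd8l, Plet1os and Plet1 lie above the genes within 500 kb of them, but were chosen for their rise, so nothing is read from that. Of the bacterial segregation genes, a list written with results known, 8 passed.

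Genes beside the 4 on the chromosome did not pass the thresholds. Of 35 genes in the table within 500 kb of any of them, 0 passed at 5 or 10% RPS with DESeq2 or edgeR. At an unadjusted p under 0.05, 3 and 4 were counted with DESeq2, against 16.6 and 18.8% of all genes, and 2 and 4 with edgeR, against 15.9 and 18%. Of all genes, 0.438 and 0.9% were called with DESeq2. The uncharacterised gene 1810065E05Rik lies between Lypd8 and Lypd8l and is itself abundant, at 66062 ± 26128 normalised counts (SD, n = 5) at 0% and 70338 ± 7627 at 10% RPS, with log2 0.09 ± 0.22. On the outer sides, Sh3bp5l beside Lypd8 gave -0.01 ± 0.06 and Cfap144 beside Lypd8l gave -0.29 ± 0.21. Next to Plet1 and Plet1os, the pterin enzyme gene Pts gave -0.09 ± 0.09 and Rpl10-ps3 gave 0.08 ± 0.22. The cytokine gene Il18, also within 500 kb of Plet1, gave 0.74 ± 0.25 at 5% (adjusted p = 0.0899) and 0.53 ± 0.25 at 10% RPS (0.217), and it passed at both levels without 0% RPS replicate 2.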

How the data were processed

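Stranded mRNA libraries of 20 PC segments were read from 1 end for 50 bases. Per the study's methods, the authors removed low-quality bases and reads with more than 2 ambiguous bases, and mapped and counted reads in CLC Genomics Workbench on GRCm39. The deposited values are whole-number counts per gene, not normalised. The annotation, the use of strand, the handling of reads with several matches and the rule that kept 12701 genes are not given in the sources used here. Libraries were grouped by the labelled treatment and numbered within a diet in order. The p-values measure the spread between these 5 samples a diet.

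The test was that of the study, DESeq2 (version 1.42.0, R 4.3.3), in 1 fit of all libraries and genes with diet as the term, and a gene passed if it changed at least 1.5-fold with a p of at most 0.05 after Benjamini-Hochberg adjustment. All adjusted p-values are over all genes tested and come from DESeq2 unless edgeR (version 4.0.16, quasi-likelihood test, 12366 genes kept by its filter) is named. A gene at or under 3 counts would have been at the floor (0.0855 to 0.146 CPM), which covers counting error only. Correlations used log2(normalised count + 1) and genes with a mean of at least 50. Symbols, coordinates and exons came from GENCODE M39 on GRCm39 (12682 genes matched) and promoters from RefSeq.

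The 4 genes and all gene lists were chosen with earlier results of these data known. The lists were the Ly6/uPAR family, GPI anchor synthesis, bacterial segregation, markers of absorptive, goblet, stem, cycling, muscle, neural, fibroblast, leukocyte and plasma cells, and epithelial transcription factors. Muc2 and Agr2 stand in both the goblet and the segregation list. Il18 stands in both the segregation list and the genes within 500 kb. Named were the 4 genes, the 5 genes most correlated with each, list genes that passed at 5 or 10% RPS (up to 8 a list), the 3 Ly6/uPAR genes highest per kb, and the nearest genes on each side. Correlations with marker lists were added after the data were seen. Alternatives were edgeR, TMM factors, a low-count filter, no independent filtering, no fold threshold, shrunken fold changes, fewer diets, other scales, and the omission of libraries. The fits were tested on simulated data. Figures were made with Python (version 3.11.15) and matplotlib (version 3.10.9).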

Additional observations from a re-analysis of the deposited data

How the results depend on the processing

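The number of segregation genes that passed was 8 at each of 5 and 10% RPS, and fell to 2 and 3 with edgeR. Leaving out each library in turn gave 3 (without 5% RPS replicate 2) to 9 (without 0% RPS replicate 2 or 3) at 5% RPS. At 10% RPS it gave 4 (without 0% RPS replicate 5) to 10 (without 0% RPS replicate 2). For the Ly6/uPAR family, edgeR gave 0 at 5% RPS, a fit of only the diets compared gave 0 at 5% and 1 at 10%, and leaving out libraries gave 0 to 1 at both. For absorptive markers at 5% RPS, edgeR and the fit of only the diets compared gave 0, no fold threshold gave 2, and leaving out libraries gave 0 to 1. At 10% RPS no fold threshold gave 4 and leaving out libraries 0 to 2. Genes within 500 kb gave 0 to 1 at both levels, the 1 being Il18 (both levels, without 0% RPS replicate 2) or Hspb2 (lower at 10%, without 0% RPS replicate 3). A linear trend over the RPS percentage was called for 538 genes, against 165 with edgeR and 144 in the 2, 5 and 10% diets alone, and for 178 (without 10% RPS replicate 5) to 807 (without 0% RPS replicate 2) on leaving out libraries. The cause of these differences was not tested.

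Log2 fold changes of the 4 genes kept their sign under every alternative run except that of Plet1os at 2% RPS, which ran from -0.028 (without 0% RPS replicate 5) to 0.25 (without 0% RPS replicate 2) on leaving out libraries. Shrinkage lowered all of these fold changes. At 10% RPS the shrunken values were 0.26 for Lypd8, 0.66 for Lypd8l, 0.44 for Plet1 and 0.50 for Plet1os. With diet means taken off, correlations of Lypd8 reversed to -0.095 with Lypd8l, -0.20 with Plet1 and -0.36 with Plet1os. No paired analysis was possible because no replicate number in the labels is shared by mice of different diets. With 5 mice a diet, 1 library decided several counts, and the depth limits none of the 4 genes. Counts per exon, which would part Plet1 from Plet1os, were not analysed here.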

Other observations

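Markers of other cells in the segment and epithelial transcription factors were counted in the same way. Of 26 transcription factors in the table, 0 passed at 5 or 10% RPS with DESeq2 or edgeR, with 8 and 5 at an unadjusted p under 0.05 with DESeq2 and 9 and 5 with edgeR. Over all genes the shares under that p at 5 and 10% RPS were 16.6 and 18.8% with DESeq2, and 15.9 and 18% with edgeR. Of 10 neuron and glia markers, Gfap, the intermediate filament of enteric glia, passed at 10% RPS (log2 0.61 ± 0.16, adjusted p = 0.00797 with DESeq2 and 0.0569 with edgeR). Without 0% RPS replicate 3 it fell below the fold threshold (log2 0.57). The other lists had 0 genes past the thresholds at 10% RPS with DESeq2 or edgeR, and their counts at an unadjusted p under 0.05 with DESeq2 were 2 of 6 crypt stem markers, 3 of 8 cycling markers, 0 of 8 smooth muscle markers, 2 of 6 fibroblast markers, 0 of 3 leukocyte markers and 1 of 5 plasma cell markers. With edgeR the same counts were 2, 1, 0, 2, 0 and 1. Over the 20 libraries the summed crypt stem markers correlated with Lypd8 at r = -0.66 (rho = -0.68, r = -0.63 within diets) and with Plet1 at r = 0.09 (rho = 0.03, r = 0.42 within diets). The summed smooth muscle markers, a sign of how much of the gut wall a segment holds, correlated with Lypd8 at r = -0.10, with Lypd8l at 0.04, with Plet1 at -0.18 and with Plet1os at -0.28. The summed neuron and glia markers gave -0.07, -0.34, -0.51 and -0.58 with the genes in that order (0.16, -0.07, -0.44 and -0.50 within diets). The summed plasma cell markers gave -0.04, 0.48, 0.48 and 0.47 (-0.23, 0.50, 0.50 and 0.49 within diets), and 0.50, 0.79, 0.75 and 0.72 without 0% RPS replicate 2. Fibroblast markers gave -0.33, 0.08, -0.02 and -0.06, leukocyte markers -0.09, 0.21, 0.01 and -0.04, and cycling markers 0.21, 0.24, 0.50 and 0.51. These values share libraries and are descriptions.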
